A study of Mus musculus with 47 samples.

Results

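The genes described here are 39 molecular chaperones and stress genes of the mouse liver, chosen by name among 21737 genes tested. They fall into 22 genes of the cytosolic and mitochondrial heat shock system and 17 genes of the endoplasmic reticulum (ER). The cytosolic list holds the HSP70 system, the HSP90 system, the small heat shock proteins, the mitochondrial chaperones and Hsf1. The ER list holds folding enzymes, secreted or membrane targets of the unfolded protein response, its transcription factors, and Trib3 of its PERK arm. Each gene was read from 1 probe, and all 39 probes were well above background on all 47 arrays.

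Chaperones bind unfolded protein and help it reach its native shape. When unfolded protein builds up in the cytosol, the transcription factor HSF1 binds heat shock elements in the DNA and drives genes of the HSP70, HSP90 and small heat shock families. When it builds up in the ER, the sensors IRE1, PERK and ATF6 start the unfolded protein response, whose factors XBP1, ATF4 and CHOP (Ddit3) drive ER chaperones, degradation enzymes and amino acid genes. The hepatocyte secretes much of the protein of plasma, so its ER chaperones are abundant.

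Mice were adult C57BL/6J littermates of both sexes, either Pxr+/+ or lacking the pregnane X receptor in the whole body (Pxr-/-). PXR (Nr1i2) is a nuclear receptor that senses drugs, bile acids and other foreign or microbial compounds. The ATB groups drank antibiotics (ATB), which were ampicillin at 1 g/L, neomycin at 1 g/L and vancomycin at 0.5 g/L, for 2 weeks, and controls (Cont) had none. All livers were taken at zeitgeber time 6 h, that is 6 h after lights on. Each of the 8 groups of sex, genotype and treatment had 6 mice, except male Pxr-/- Cont with 5. Mice of a group shared cages, and antibiotics were given in the drinking water of a cage. The labels do not tie mice to cages, so cage was not modeled. The tests treat mice as independent, and their p-values do not account for differences between cages.

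The arrays had a 75th percentile of the median signal between 214 and 342.5 units of brightness. Xist separated the sexes without overlap. The only Nr1i2 probe read 11.23 to 12.41 on the log2 scale in Pxr+/+ mice and 10.36 to 11.89 in Pxr-/- mice, which overlap, and its position relative to the deleted exons was not determined, so it did not check the genotype labels. Whole liver was measured, so fewer cells of a type and less RNA per cell cannot be told apart. Of the 7 hepatocyte markers listed, 6 had a tested probe, and the group means of their centered log2 level lay between -0.08 and 0.09.

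The cytosolic and the ER genes carried different promoter motifs, and 6 promoter stretches are shown because they hold them. RefSeq promoters (GRCm38.p6), which run from 250 bases before to 50 bases after the transcription start, were found for 16 of the 22 cytosolic and mitochondrial genes and 15 of the 17 ER genes. A heat shock element was searched on both strands as GAA and TTC units that alternate with 2 bases between them, with 2 units read as GAANNTTC or TTCNNGAA, so that overlapping matches occur. The ER stress response element was searched on both strands as CCAAT and CCACG with 9 bases between them. Capitals mark the units in the stretches below, which end before the transcription start.

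Hspe1 (chr1:55088019-55088116, + strand): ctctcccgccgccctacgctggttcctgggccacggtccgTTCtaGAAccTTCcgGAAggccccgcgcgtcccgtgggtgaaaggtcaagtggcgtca

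Hspb1 (chr5:135887762-135887869, + strand): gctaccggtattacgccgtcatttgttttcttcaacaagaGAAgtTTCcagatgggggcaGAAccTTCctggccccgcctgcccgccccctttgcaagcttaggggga

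Hspa1a (chr17:34972213-34972300, - strand): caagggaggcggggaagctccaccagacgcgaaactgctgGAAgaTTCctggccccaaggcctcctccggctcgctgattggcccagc

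Hspa5 (chr2:34771985-34772083, + strand): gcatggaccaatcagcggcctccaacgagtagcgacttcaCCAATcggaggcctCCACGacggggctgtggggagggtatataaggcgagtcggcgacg

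Calr (chr8:84847035-84847133, - strand): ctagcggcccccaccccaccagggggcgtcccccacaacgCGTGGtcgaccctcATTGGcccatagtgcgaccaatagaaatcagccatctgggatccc

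Hsp90b1 (chr10:86705493-86705694, - strand): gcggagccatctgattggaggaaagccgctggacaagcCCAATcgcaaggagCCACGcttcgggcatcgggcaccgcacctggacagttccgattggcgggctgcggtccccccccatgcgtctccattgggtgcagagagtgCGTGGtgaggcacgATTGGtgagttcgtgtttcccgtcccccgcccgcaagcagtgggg

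At least 2 adjacent units lay in the promoters of 11 of the 16 cytosolic and mitochondrial genes and in none of the 15 ER genes, while 17% of the 27025 genes in the table had them. Runs of 3 units lay in the promoters of Hspd1, Hspe1, Hsph1 and Chordc1, against 0.662% of all genes. Hspd1 and Hspe1, which encode the barrel and the lid of the mitochondrial chaperonin, are divergent neighbors on chromosome 1, and the run of 4 units shown for Hspe1 is the one found for Hspd1 on the opposite strand. The ER stress response element lay in the promoters of Calr, Creld2, Dnajc3, Hsp90b1, Hspa5 and Pdia6 and in none of the cytosolic and mitochondrial genes, against 0.137% of all genes. Hsp90b1 had it at 2 places, in opposite orientation. A match is a description of these letters and not evidence of binding.

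Antibiotic treatment was followed by lower transcripts of 3 cytosolic chaperones when the effect was averaged over both sexes and genotypes. These were Hspb1 (HSP27), a small heat shock protein that holds unfolded clients, Hsp90aa1, the stress-inducible HSP90, and Stip1 (HOP), the co-chaperone that hands clients from HSP70 to HSP90. All 3 are in the cytosolic list, and none of the 17 ER genes passed. Of all genes tested, 0.869% were lower in this averaged comparison, with 320 genes higher and 189 lower, against 229 and 286 under quantile normalization. Hspa4l had an adjusted p of 0.0383 in limma, but its log2 difference of -0.26 missed the fold minimum, and under quantile normalization it passed at -0.29. The 4 ATB comparisons share no mice with each other, whereas the ATB, PXR and sex comparisons use the same mice.

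Hspb1 had log2 signals with a lowest, median and highest value of 12.15, 12.93 and 13.50 in female Pxr+/+ Cont and 11.80, 12.23 and 12.76 after ATB. In female Pxr-/- mice these were 12.26, 12.93 and 13.29 in Cont and 11.75, 12.06 and 12.92 after ATB. The ATB mice sat low in both female genotypes, with overlap between the groups. In male Pxr+/+ mice they were 12.28, 12.65 and 12.75 in Cont and 11.20, 12.02 and 12.40 after ATB, and in male Pxr-/- mice 11.82, 12.59 and 13.39 in Cont and 11.70, 12.43 and 12.58 after ATB. All 4 medians were lower after ATB. Averaged over the 4 comparisons, Hspb1 fell by 0.56 on the log2 scale (SE 0.13, limma adjusted p = 0.00547), a 1.48-fold decrease. Within the 3 washing baths the averaged log2 differences of Hspb1 were -0.47, -0.94 and -0.11. Here and below, the third bath held 8 arrays with 1 mouse of each group, so its values compare single mice.

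Hsp90aa1 had a lowest, median and highest log2 signal of 12.89, 13.68 and 14.09 in female Pxr+/+ Cont and 12.51, 12.88 and 13.30 after ATB. In female Pxr-/- mice the values were 13.10, 13.49 and 13.89 in Cont and 12.28, 12.98 and 13.50 after ATB. Both female groups shifted down and overlapped their controls. In males they were 12.90, 13.22 and 13.60 in Pxr+/+ Cont, 12.66, 12.96 and 13.35 in Pxr+/+ ATB, 12.26, 13.26 and 13.63 in Pxr-/- Cont and 12.10, 13.00 and 13.37 in Pxr-/- ATB. The male groups overlapped almost fully. Averaged over the 4 comparisons Hsp90aa1 fell by 0.41 on the log2 scale (SE 0.11, limma adjusted p = 0.0151), with -0.35, -0.70 and -0.07 within the 3 washing baths. A further probe of Hsp90aa1 gave -0.47 (limma adjusted p = 0.00851).

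Stip1 had a lowest, median and highest log2 signal of 10.27, 10.71 and 10.91 in female Pxr+/+ Cont and 9.91, 10.00 and 10.32 after ATB. In female Pxr-/- mice the values were 10.17, 10.41 and 10.78 in Cont and 9.79, 10.07 and 10.54 after ATB. Only the highest ATB mouse of the Pxr+/+ females reached the lower end of its controls. In males they were 9.89, 10.30 and 10.44 in Pxr+/+ Cont, 10.04, 10.09 and 10.23 in Pxr+/+ ATB, 9.53, 10.32 and 10.55 in Pxr-/- Cont and 9.75, 10.03 and 10.38 in Pxr-/- ATB. Stip1 fell by 0.28 on the log2 scale in the mean of the 4 comparisons (SE 0.07, limma adjusted p = 0.0126), with -0.24, -0.54 and 0.01 within the 3 washing baths. The dimmer Stip1 probe, read from another sequence, gave 0.05 and did not pass (limma adjusted p = 0.854).

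**Figure D1:**
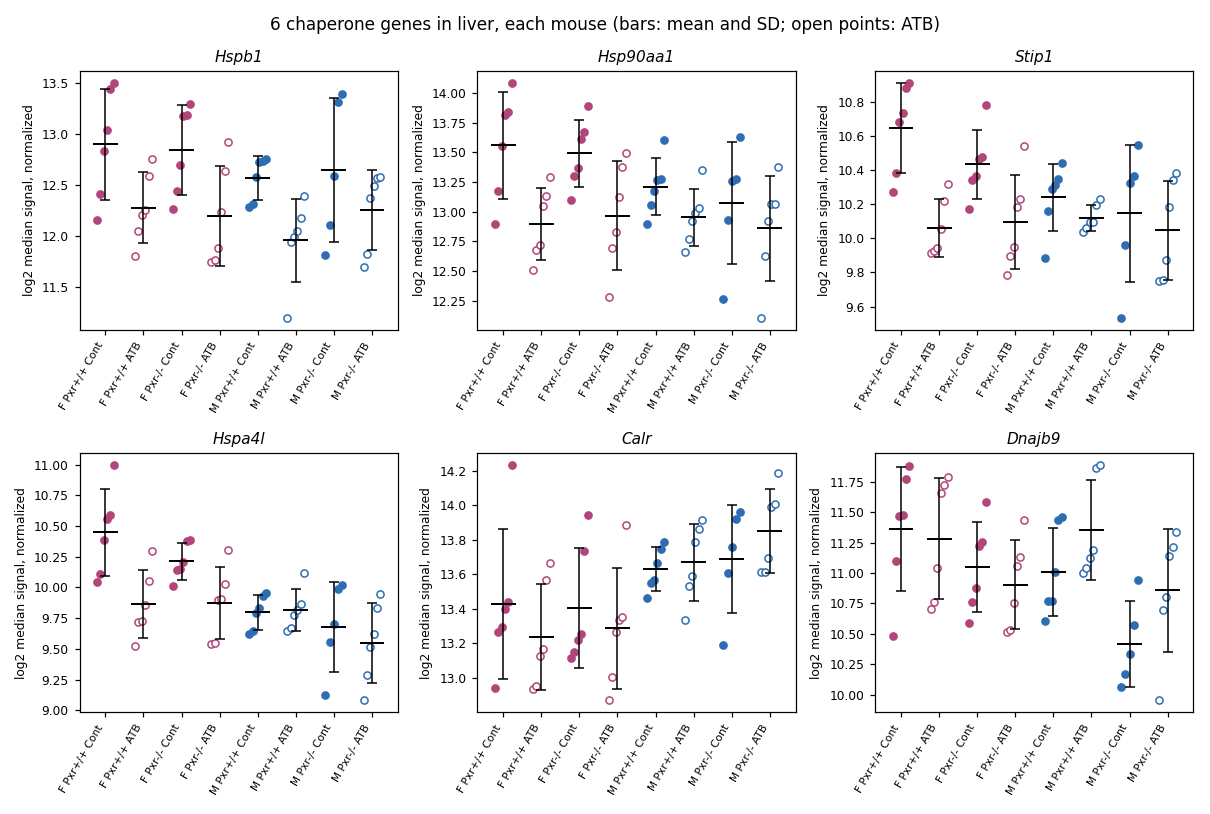
Normalized log2 median signal (vertical axis) of Hspb1, Hsp90aa1, Stip1, Hspa4l, Calr and Dnajb9 in each mouse of the 8 groups (horizontal axis, F female, M male, Cont filled, ATB open), with bars for the mean and SD. Hspb1, Hsp90aa1 and Stip1 sit lower after ATB in both female genotypes, with medians of 12.93 against 12.23 for Hspb1 in Pxr+/+ females.

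Taken comparison by comparison, no member passed the test for ATB with limma. Of all genes 1.04% passed in Pxr+/+ males (192 higher and 35 lower, with 80 and 170 under quantile normalization), 0.11% in Pxr-/- males, 0.0138% in Pxr+/+ females and 0.0276% in Pxr-/- females, and at an unadjusted p under 0.05 the members numbered 2, 2, 13 and 7 of 39 in this order, against 18.7%, 7.18%, 10.7% and 11.7% of all genes. In Pxr+/+ females all 22 cytosolic and mitochondrial genes had a negative difference, with a median log2 difference of -0.33 against -0.06 over all genes and -0.16 over the ER genes. Of the 22, 12 reached an unadjusted p under 0.05 in that direction, against 8.93% of all genes, and none of the 17 ER genes did. They were Hspa4l, Hsph1, Dnaja1, Bag3, Hsp90aa1, Hsp90ab1, Chordc1, Ahsa1, Stip1, Fkbp4, Hspb1 and Hspe1, with adjusted p-values from limma between 0.172 and 0.458. Leaving out 1 mouse at a time moved this number between 8 and 15, and the share of all genes was not counted in those fits. The 22 genes varied together between mice of a group, with a median Pearson r of 0.53. They were also chosen with earlier results of these data known. Counts over the list, here and below, are thus descriptions and not separate tests. Without replicate 1 of the Pxr+/+ female controls, Hspa4l, Stip1 and Fkbp4 passed the test, with limma adjusted p-values of 0.0441, 0.024 and 0.0327. Within the 3 washing baths the median log2 difference of the 22 genes was -0.05, -0.68 and -0.52.

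In Pxr-/- females the median log2 difference of the 22 genes with ATB was -0.29, against 0.05 over all genes and -0.15 over the ER genes. Of the 22, 7 reached an unadjusted p under 0.05 and were lower, against 1.73% of all genes, namely Hspa4l, Hsph1, Dnaja1, Hsp90aa1, Chordc1, Stip1 and Hspb1. Leaving out 1 mouse moved this number from 2, without ATB replicate 1 or Cont replicate 4, to 10, without ATB replicate 4. With quantile normalization it was 13, and the share of all genes was not counted in any of these other fits. Dnaja1, an HSP40 that delivers clients to HSP70, did not overlap between groups there, at a log2 difference of -0.46 (limma adjusted p = 0.236), and 0.124% of all genes were lower there without overlap. Within the washing baths the median log2 difference of the 22 genes was -0.41, -0.38 and 0.20, and the last value compares 1 mouse with 1 mouse.

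The average over both female genotypes was added after the data had been seen. Stip1 (log2 difference -0.46, SE 0.10, limma adjusted p = 0.0174) and Hspa4l (-0.46, SE 0.11, limma adjusted p = 0.0314), an HSP110 protein that exchanges nucleotide on HSP70, passed and were lower, among 0.212% of all genes. All 22 cytosolic and mitochondrial genes and 16 of the 17 ER genes had a negative difference there, with medians of -0.33 and -0.20 against 0.00 over all genes. With quantile normalization of the same arrays 9 of the 22 passed, namely Hspa4l, Hsph1, Dnaja1, Hsp90aa1, Chordc1, Ahsa1, Stip1, Fkbp4 and Hspb1, with limma adjusted p-values between 0.00708 and 0.0376, among 0.566% of all genes. None of the 17 ER genes passed under either normalization.

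The average over both male genotypes was likewise added after the data had been seen. In it the median log2 difference was 0.04 over the cytosolic and mitochondrial genes and 0.13 over the ER genes. Over all genes it was 0.06, and 1.8% of them passed (284 higher and 108 lower, with 185 and 354 under quantile normalization). Xbp1, the factor that IRE1 splices to switch on ER chaperone genes, was the member that passed. Without replicate 6 of the male Pxr-/- controls the medians were -0.06 and 0.04, against 0.05 over all genes, and in Pxr-/- males alone the medians moved from 0.03 to -0.13 and from 0.06 to -0.13.

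Xbp1 had a lowest, median and highest log2 signal of 14.10, 14.20 and 14.62 in Pxr+/+ Cont and 14.52, 14.63 and 15.08 after ATB, and 13.95, 14.12 and 14.60 in Pxr-/- Cont and 14.20, 14.52 and 14.74 after ATB. The ATB males lay high in both genotypes, with overlap. Averaged over both genotypes, Xbp1 rose by 0.36 on the log2 scale (SE 0.10, limma adjusted p = 0.0427). With quantile normalization, in which 0 members passed in the males, it did not pass. Without that control male it was at 0.34 (SE 0.10, limma adjusted p = 0.0892) and did not pass either. In Pxr+/+ males all 17 ER genes had a positive difference, with a median of 0.19 against 0.10 over all genes, and with quantile normalization 13 of the 17 did, with a median of 0.05 against 0.00.

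The difference between the ATB effects of males and females was tested in both genotypes, and the difference between the effects of genotypes in both sexes. No member passed in any of 6 such differences, which include PXR loss, and 0.0828% of all genes passed in at least 1. At an unadjusted p under 0.05 the members numbered 7 for ATB in males less females in Pxr+/+ mice, against 12.9% of all genes. They numbered 5 in Pxr-/- mice, against 4.87%, and 0 in the other 4 differences. Of the 21737 genes, 961 reached it for PXR loss in males less females in Cont and 1907 in ATB mice. For the ATB effect between genotypes, 1094 did in males and 2045 in females. A difference of the ATB effect between the sexes is thus not shown. The average of this difference over genotypes was also added after the data had been seen. Of the 22 cytosolic and mitochondrial genes, 0 had a negative difference there, with a median of 0.35 against 0.06 over all genes. An unadjusted p under 0.05 was reached by 12 of the 22 and by 7 of the 17 ER genes, against 7.28% of all genes. Without replicate 6 of the male Pxr-/- controls these counts were 6 and 3, against 1379 of the 21737 genes tested. The median of the 22 was then 0.27, against 0.05 over all genes. This difference between the sexes (males less females) was 0.74 for Hsph1 (SE 0.26, limma adjusted p = 0.675), 0.41 for Hspa4l (SE 0.16, limma adjusted p = 0.683) and 0.39 for Xbp1 (SE 0.14, limma adjusted p = 0.675) on the log2 scale.

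**Figure D2:**
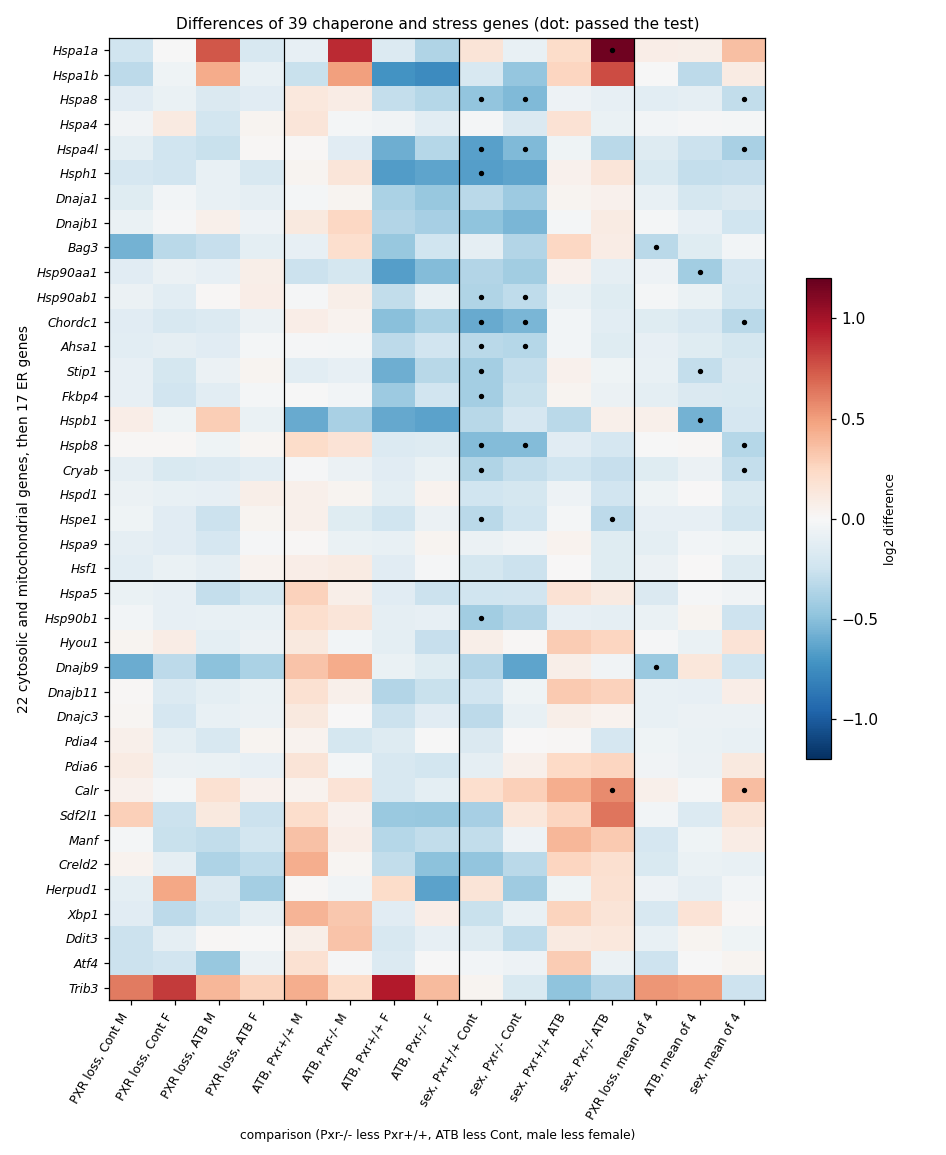
Log2 difference (color) of the 39 genes (vertical axis, 22 cytosolic and mitochondrial above the line, 17 ER below) in 12 comparisons and their 3 means (horizontal axis), with a dot where the gene passed the test. Dots are absent from the 8 single PXR and ATB comparisons and gather in the sex comparisons of control mice. In Pxr+/+ controls 11 cytosolic and mitochondrial genes and 1 ER gene passed there. Of all genes, 32.2% passed in Pxr+/+ controls and 16.1% in Pxr-/- controls, so the dots there do not set the members apart.

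No member passed the test for PXR loss in males or females, in Cont or ATB, where limma called 0.189% (Cont males), 3.18% (Cont females, 46 higher and 646 lower, with 100 and 134 under quantile normalization), 0.943% (ATB males, 69 and 136, with 140 and 27) and 0.207% (ATB females) of all genes. At an unadjusted p under 0.05 the members numbered 2, 2, 5 and 0 of 39 in this order, against 5.2%, 21.4%, 22.9% and 5.18% of all genes. In the mean of the 4 comparisons 2 members were lower, among 3.23% of all genes (150 higher and 703 lower, with 232 and 180 under quantile normalization). Dnajb9 (ERdj4), an ER HSP40 that is a classic target of XBP1, fell by 0.44 on the log2 scale (SE 0.12, limma adjusted p = 0.0175), and its dimmer probe gave -0.21 (limma adjusted p = 0.187). Bag3, the HSP70 nucleotide exchange factor that works with Hspb8 in autophagy of damaged protein, fell by 0.32 on the log2 scale (SE 0.11, limma adjusted p = 0.0472), and passed in 19 of the 47 fits without 1 mouse, against 47 of 47 for Dnajb9.

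Dnajb9 had a lowest, median and highest log2 signal of 10.61, 10.89 and 11.46 in male Pxr+/+ Cont and 10.06, 10.34 and 10.94 in male Pxr-/- Cont. After ATB the male values were 11.002, 11.15 and 11.89 in Pxr+/+ and 9.95, 10.97 and 11.34 in Pxr-/-. The Pxr-/- males sat lower in both treatments, with overlap. In females they were 10.48, 11.47 and 11.88 in Pxr+/+ Cont, 10.59, 11.05 and 11.58 in Pxr-/- Cont, 10.71, 11.35 and 11.79 in Pxr+/+ ATB and 10.52, 10.91 and 11.43 in Pxr-/- ATB. All 4 medians were lower without PXR. The averaged log2 difference within the 3 washing baths was -0.40, -0.39 and -0.66 for Dnajb9 and -0.24, -0.38 and -0.42 for Bag3. Both calls were lost under quantile normalization, where the limma adjusted p-values were 0.067 and 0.14 and the median of all genes moved from -0.07 to 0.00. Trib3, a CHOP target that blunts the PERK arm, was at 0.53 (SE 0.20, limma adjusted p = 0.0678) and was the member with the largest positive difference.

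In Pxr+/+ controls 12 members were lower in males than in females, among 30% of all genes, and none was higher. They were 11 of the 22 cytosolic and mitochondrial genes and 1 of the 17 ER genes. The HSP70 system gave Hspa8, the constitutive HSP70, Hspa4l and Hsph1, both HSP110 proteins. The HSP90 system gave 5 of its 6 genes, Hsp90ab1, Chordc1, Ahsa1, Stip1 and Fkbp4. Hspb8 and Cryab of the small heat shock proteins, Hspe1 of mitochondria and Hsp90b1 (GRP94) of the ER completed the set.

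Hspa4l had a lowest, median and highest log2 signal of 9.62, 9.82 and 9.96 in male and 10.05, 10.47 and 10.999 in female Pxr+/+ Cont, with no overlap. The log2 difference was -0.65 (male less female, SE 0.15, limma adjusted p = 0.00144), and with quantile normalization it was -0.42 (limma adjusted p = 0.0234). Hspa4l was the 1 member that still passed under quantile normalization. Hspa8 read 14.44, 14.83 and 15.08 in males and 15.12, 15.25 and 15.41 in females, at a log2 difference of -0.48 (SE 0.17, limma adjusted p = 0.0312). Hspb8 read 12.09, 12.27 and 12.575 in males and 12.581, 12.81 and 13.16 in females, at -0.52 (SE 0.16, limma adjusted p = 0.0132). Hspa8, Hspb8, Cryab and Hspe1 likewise did not overlap between the sexes in these groups, and 16% of all genes were lower in males without overlap.

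The median of all genes was itself lower in males in this comparison, at a log2 difference of -0.20, and 475 genes were called higher and 6515 lower. With quantile normalization these numbers were 1518 and 1820 and the median of all genes was 0.01. Relative to the median of all genes, the median of the 22 cytosolic and mitochondrial genes lay at -0.14 on the log2 scale with CrossNorm and -0.15 with quantile normalization, and that of the ER genes at -0.02 and -0.03. The sign of the median of the cytosolic and mitochondrial genes was thus the same under both, while the calls were not. Markers of other cell types also differed between these groups: 8 of 9 measured macrophage markers were called lower in males, and their mean level, centered over all mice, ran from -0.35 to 0.14 in male and from 0.58 to 1.66 in female Pxr+/+ Cont on the log2 scale. The level of T and NK markers ran from -0.52 to -0.24 in these males and from 0.19 to 0.69 in these females. Mean levels of B, neutrophil, sinusoidal endothelial, stellate and cholangiocyte markers were also lower in these males. The part of all these markers in the chaperone differences was not tested. Within the 3 washing baths the median log2 difference of the 22 genes was -0.19, -0.62 and -0.34.

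In Pxr-/- controls 6 members were lower in males, among 13.7% of all genes (531 higher and 2978 lower, with 1312 and 1366 under quantile normalization). They were Hspa8, Hspa4l, Hsp90ab1, Chordc1, Ahsa1 and Hspb8, all cytosolic. Leaving out 1 mouse moved this count between 0 and 10. It was 0 without replicate 6 of the male Pxr-/- controls, which had the lowest mean level of both lists in the study, at -0.77 and -0.74 on the centered log2 scale. The median log2 difference of the 22 genes was -0.33 with this mouse and -0.20 without it. Within the 3 washing baths it was -0.23, -0.28 and -0.76, and this mouse is the one male of the last value.

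After ATB, in Pxr+/+ mice no member passed, among 12.5% of all genes (746 higher and 1963 lower, with 1373 and 1799 under quantile normalization), and 1 member, Calr, reached an unadjusted p under 0.05 in limma, against 25.1% of all genes. In Pxr-/- mice Hspa1a and Calr were higher in males, among 2.53% of all genes, and Hspe1 was lower, among 23.2% (551 higher and 5052 lower, with 1473 and 1376 under quantile normalization). Hspa1a, an inducible HSP70, read 7.02, 8.08 and 9.74 in males and 6.40, 6.92 and 8.11 in females, at a log2 difference of 1.17 (SE 0.41, limma adjusted p = 0.0295). The groups overlapped, and the call was lost in 6 of the 12 fits without 1 mouse. Its near-identical neighbor Hspa1b was at 0.78 (SE 0.41, limma adjusted p = 0.14), and a probe of 1 may bind transcripts of the other. Hspe1, at -0.31 (limma adjusted p = 0.0333), passed in 7 of the 12 fits without 1 mouse and under 4 of 11 other settings, with a value as near to 0 as -0.06 (limma adjusted p = 0.716).

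Calr, calreticulin, the lectin chaperone that binds glycoproteins and calcium in the ER, was higher in males in the mean of the 4 sex comparisons. Its lowest, median and highest log2 signals were 13.46, 13.62 and 13.79 in male and 12.94, 13.35 and 14.23 in female Pxr+/+ Cont, and 13.19, 13.76 and 13.96 in male and 13.12, 13.24 and 13.94 in female Pxr-/- Cont. After ATB they were 13.34, 13.69 and 13.92 in male and 12.94, 13.15 and 13.66 in female Pxr+/+ mice, and 13.61, 13.84 and 14.18 in male and 12.87, 13.30 and 13.89 in female Pxr-/- mice. The male medians were higher in all 4 pairs, and all pairs overlapped. In the mean of the 4 comparisons Calr was higher in males by 0.37 on the log2 scale (SE 0.09, limma adjusted p = 0.000472), among 3.32% of all genes, and by 0.50 with quantile normalization. Within the 3 washing baths the averaged difference was 0.52, 0.20 and 0.29.

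In the same mean of 4, Hspa8, Hspa4l, Chordc1, Hspb8 and Cryab were lower in males, among 23.6% of all genes (721 higher and 5128 lower, with 1664 and 2362 under quantile normalization). Their log2 differences ran from -0.39 for Hspa4l (SE 0.08, limma adjusted p = 6.1e-05) to -0.29 for Cryab (SE 0.06, limma adjusted p = 0.000183). With quantile normalization none of these 5 passed, where Hspa4l was at -0.24 (limma adjusted p = 0.00386) and under the fold minimum, and Hspa1a, Hyou1 and Calr were higher in males, at 0.55, 0.34 and 0.50. The 4 probes of Hspa4l all gave negative values, from -0.39 to -0.27. Of the further genes of the cytosolic and mitochondrial pathways, 9 of 38 were lower and 1 higher, and of those of the ER, 5 of 32 were lower and 1 higher.

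Among these further genes, the largest changes in that mean were in Fkbp5, a glucocorticoid-induced HSP90 co-chaperone, at -1.27 (SE 0.24, limma adjusted p = 2.34e-05), in Clpx, the unfoldase of the mitochondrial ClpXP protease, at -0.50 (SE 0.11), and in Hspa2, a further HSP70, at -0.33 (SE 0.09). Hspb6, a small heat shock protein, was higher in males at 0.34 (SE 0.06). Of the ER pathways, Asns, the asparagine synthetase that ATF4 induces, was higher at 1.65 (SE 0.10, limma adjusted p = 3.54e-18), and Nupr1, Chac1 and Edem1 were lower at -1.01, -0.58 and -0.36. Asns and Nupr1 are both known ATF4 targets and lay on opposite sides. For ATB, of these 70 genes 1 passed in the mean of 4, against 2.34% of all genes, Bag2, a further HSP70 exchange factor, at -0.35 (SE 0.06, limma adjusted p = 0.000198). For PXR loss, 2 of the 70 passed, against 3.92% of all genes, Nupr1 at -0.50 and Asns at -0.41.

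Over the 12 single comparisons and 3 means, 21 of the 39 members passed in none with limma. They were 7 of the cytosolic and mitochondrial list, Hspa1b, Hspa4, Dnaja1, Dnajb1, Hspd1, Hspa9 and Hsf1, and 14 of the 17 ER genes. The 3 ER genes that passed somewhere were Hsp90b1, Dnajb9 and Calr. The folding enzymes Hspa5, Hyou1, Dnajb11, Dnajc3, Pdia4, Pdia6 and Sdf2l1, the targets Manf, Creld2 and Herpud1, the factors Xbp1, Ddit3 and Atf4, and the CHOP target Trib3 did not. The share of all genes that passed in none was not counted, so these counts do not set either list apart.

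The mean level of a list in each mouse, centered gene by gene over all mice, shows both lists side by side. For the cytosolic and mitochondrial list the lowest, median and highest values were 0.10, 0.25 and 0.69 in female Pxr+/+ Cont and -0.31, -0.13 and 0.33 after ATB, and -0.00, 0.21 and 0.43 in female Pxr-/- Cont and -0.50, -0.07 and 0.17 after ATB. The 2 female control groups lay highest of the 8. In males they were -0.21, -0.03 and 0.19 in Pxr+/+ Cont, -0.24, -0.06 and 0.14 in Pxr+/+ ATB, -0.77, -0.08 and 0.23 in Pxr-/- Cont and -0.49, -0.10 and 0.28 in Pxr-/- ATB. For the ER list the 8 medians ran from -0.19 in female Pxr-/- ATB to 0.09 in female Pxr+/+ ATB. The ER list less the cytosolic list was negative in all 6 female Pxr+/+ Cont mice, from -0.27 to -0.11, and spanned 0 in the other 7 groups.

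**Figure D3:**
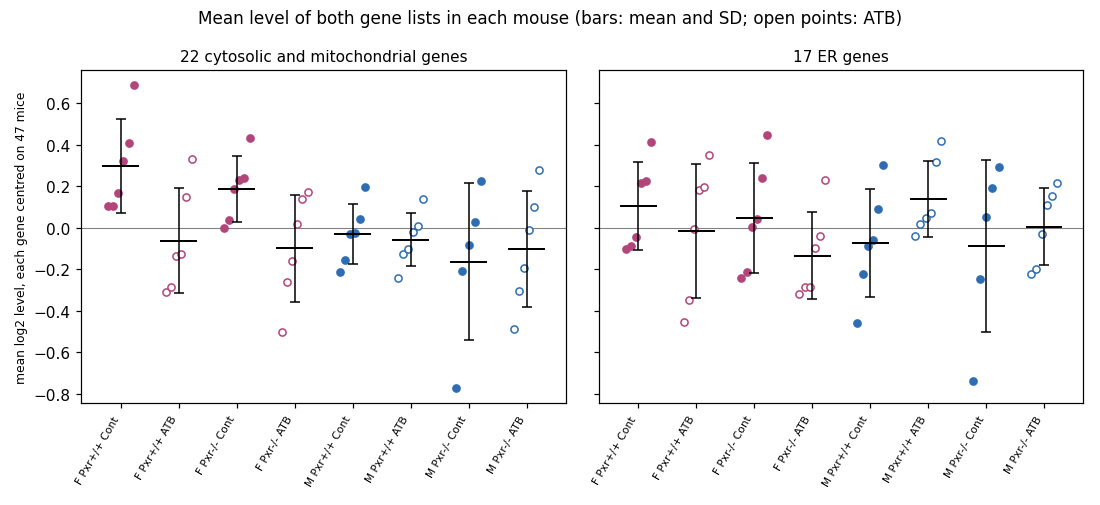
Mean log2 level (vertical axis, each gene centered over 47 mice) of the 22 cytosolic and mitochondrial genes and the 17 ER genes in each mouse of the 8 groups (horizontal axis, Cont filled, ATB open), with bars for the mean and SD. Female controls lie highest in the first panel, with medians of 0.25 and 0.21, and 1 male Pxr-/- control lies at -0.77 and -0.74.

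Levels of other markers stood beside the female ATB differences. The mean neutrophil marker level, over 3 genes, ran from 0.16 to 1.46 in female Pxr+/+ Cont and from -0.32 to 0.41 after ATB, and from -0.08 to 1.53 in female Pxr-/- Cont and from -0.56 to 0.05 after ATB. The mean macrophage marker level, over 9 genes, ran from 0.58 to 1.66 and from -0.72 to 1.21 in Pxr+/+ females, and from -0.37 to 0.34 and from -0.55 to 0.44 in Pxr-/- females. Immediate early genes, which respond to handling of tissue, ran from -0.42 to 0.75 in female Pxr+/+ Cont and from -0.28 to 0.39 after ATB, and from -0.17 to 0.90 in female Pxr-/- Cont and from -0.46 to 0.20 after ATB. Their part in the chaperone values was not tested.

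After group and washing bath were taken out, the residual SD had a median of 0.29 on the log2 scale over the cytosolic and mitochondrial genes and 0.33 over the ER genes, against 0.20 over all genes. Hspa1a and Hspa1b, the inducible HSP70 pair, had residual SDs of 0.76 and 0.75, above 99.5% and 99.5% of all genes, and Hspa1a spanned 3.96 log2 units between mice. Trib3 (0.71), Herpud1 (0.65) and Creld2 (0.64) varied most on the ER side. The mitochondrial chaperones Hspa9 (0.14) and Hspd1 (0.15) and the factor Hsf1 itself (0.14) varied least. Hsf1 read between 9.15 and 9.89 in all mice.

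Over the 47 mice the median Pearson r of the residuals was 0.53 over 231 pairs of cytosolic and mitochondrial genes, 0.57 over 136 pairs of ER genes and 0.43 over 374 pairs across the lists, against 0.18 over pairs of every 40th gene tested. With quantile normalization these medians were 0.32, 0.53, 0.33 and 0.00, and without the low male Pxr-/- control they were 0.47, 0.53, 0.39 and 0.19. All values of a mouse come from 1 array and share its scaling. Among the closest pairs were Hspa5 (BiP), the ER HSP70, with Creld2 at 0.95 and with Manf at 0.93, and Dnajb11 with Sdf2l1, parts of the same BiP complex, at 0.93. In the cytosol they were Hsph1 with Chordc1 at 0.91 and Hspa1a with Hspa1b at 0.89.

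Some pairs had a negative r. Atf4 and Trib3, a factor and a target of its partner CHOP, had an r of -0.60, and Atf4 and Herpud1 an r of -0.46. The neighbors Hspe1 and Hspd1 had a positive r of 0.70. Whether the run of 4 heat shock units that their promoters share plays a part was not tested.

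**Figure D4:**
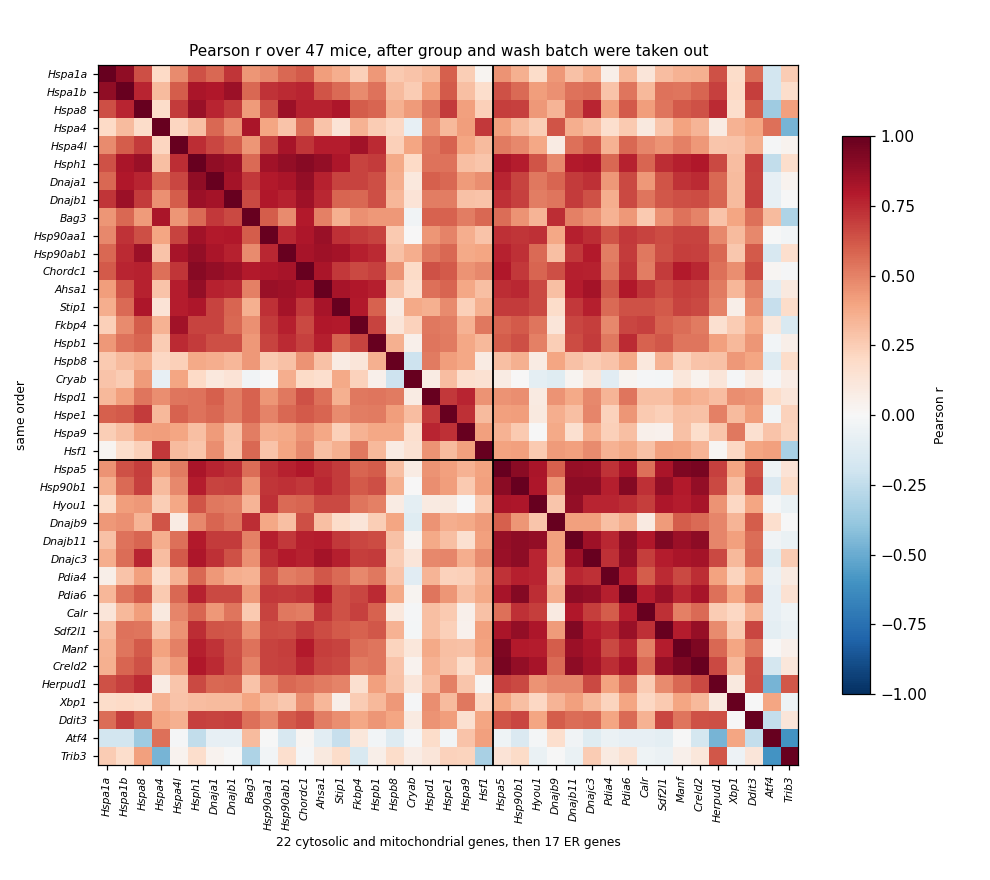
Pearson r (color) of each pair of the 39 genes over 47 mice, computed on residuals after group and washing bath were taken out, with the 22 cytosolic and mitochondrial genes first and the 17 ER genes after the line on both axes. Hspa5 and Creld2 reach 0.95, and Atf4 and Trib3 stand apart at -0.60.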

How the data were processed

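Liver RNA of 47 mice was hybridized to 1-color Agilent mouse arrays, with 1 array per mouse. Groups were taken from the sample titles and the 3 washing baths from the labels. The authors deposited scanner files made with Feature Extraction 10.10.1.1, which give each spot's intensity on a linear scale. Their deposited matrix holds log2 values that they had filtered, corrected for the washing bath and normalized with CrossNorm.

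The log2 of the median signal was computed here from 56605 gene probes, and 422 non-uniform spot values were dropped, with 413 probe values filled by the group mean. Probes entered the test if any group had 5 or more arrays with a signal well above background, which left 32974 probes and 21737 genes. The effect of the washing bath was removed and CrossNorm was rebuilt from 300 random stacks of 1 array per group. The authors' own stacking and filter rule are not given in the sources used here. The group with 5 mice repeated 1 random array in each stack. Groups were compared with limma 3.58.1 (R 4.3.3), with the washing bath as a covariate, 37 residual degrees of freedom for the probe and Benjamini-Hochberg adjustment over all tested probes.

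Following the study's thresholds, a gene passed the test if its adjusted p was 0.05 or less and its fold exceeded 1.2. A gene with several probes was read from its brightest probe. These probes are intensities of different sequences, so levels were not compared between genes. The number of arrays limits the precision. The 39 genes and the other lists were chosen with earlier results of these data known. All 39 genes are named, and from the 70 further genes of the same pathways at most 3 per side are named in a comparison, those with the largest change among the genes that passed. The fit was tested on simulated data. Alternatives covered 5 other scalings or value sets (quantile normalization, external spike-in controls, the processed signal less its 75th percentile, normexp with an offset of 50, and the deposited log2 matrix), the filter, the washing bath, the slide, a replicate block, the samples in the fit, other probes, the fold minimum and leaving out each mouse. Promoters were read from a RefSeq table of assembly GRCm38.p6, while the array's own annotation uses mm9, and coordinates were not moved between them.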

Additional observations from a re-analysis of the deposited data

Results flagged for a closer look

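In 12 of 312 pairs of a gene and a group, 1 mouse lay far from the others by its gap relative to the group's range, and chance flags about 1 in 20 such groups. Hspa1a and Hspa1b were lowest in the same female Pxr-/- Cont mouse (replicate 6), with gaps of 0.883 and 0.647 of the range, and Hspa1b was lowest in male Pxr-/- Cont replicate 6 at 0.739. Hspb8 and Hspe1 were highest in female Pxr+/+ ATB replicate 1 at 0.656 and 0.626, and Hspb8 was highest in female Pxr-/- Cont replicate 1 at 0.731. Cryab was lowest in female Pxr+/+ Cont replicate 1 at 0.658 and Bag3 in male Pxr-/- ATB replicate 6 at 0.649. Of the ER genes, Dnajc3 was highest in female Pxr-/- ATB replicate 4 at 0.668, Creld2 in female Pxr+/+ Cont replicate 5 at 0.648, Dnajb11 in male Pxr+/+ ATB replicate 6 at 0.632 and Trib3 in male Pxr+/+ Cont replicate 3 at 0.807. Bag3 is one of the 2 members that passed for PXR loss, and it passed in 19 of the 47 fits without 1 mouse.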

How the results depend on the processing

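The ATB means of Hspb1, Hsp90aa1 and Stip1 passed under 10 of 10 alternatives that kept the gene's probe, as did Calr in the sex mean, and no named result reversed under these. The dimmer Stip1 probe gave 0.05 and lost the call. Over the values of all named genes, 229 kept their side of the threshold and 112 lost it. The counts that moved by over 1.5 times were these. Quantile normalization gave 1 member for sex in Pxr+/+ controls, 0 in Pxr-/- controls, 0 for the PXR mean and 3 for the sex mean. Normexp with quantile normalization gave 1, 0, 0 and 3. Of the 21737 genes, quantile normalization called 1518 higher and 1820 lower, 1312 and 1366, 232 and 180, and 1664 and 2362 in this order. With normexp these numbers were 1216 and 1497, 1115 and 1170, 174 and 128, and 1222 and 1671. The processed signal gave 2 and 0 for the 2 sex comparisons of controls, 2 and 6 after ATB in Pxr+/+ and Pxr-/- mice, and 0 for the PXR mean. Of all genes, 17.9%, 14.5%, 16.8%, 15.3% and 2.48% passed in this order. Spike-in scaling gave 0 for the PXR mean, against 1.87% of all genes. The authors' processed values gave 4 and 3 in controls, 1 for the PXR mean and 2 for the sex mean. Of all genes, 19.7%, 13.9%, 2.77% and 20.6% passed in these. Without a filter, sex in Pxr-/- controls gave 2 and the PXR mean 1, against 13.5% and 3.42% of all genes. With only the groups compared, sex in Pxr-/- controls gave 2, against 7.34% of all genes. Any probe gave 1 for PXR loss in female controls and 1 for sex in Pxr+/+ ATB mice, and adjusted p alone gave 14 for the sex mean. The share of all genes under these 2 rules was not counted. The cause was not tested. Chosen after seeing the data, ATB in males alone gave 1 member, Xbp1, and 0 without male Pxr-/- Cont replicate 6, and males less females gave 0.

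Leaving out 1 mouse gave 0 to 0 members for each PXR loss comparison, for ATB in males and in Pxr-/- females and for the 6 differences, and 0 to 3 for ATB in Pxr+/+ females. For sex it gave 8 to 15 in Pxr+/+ controls, 0 to 10 in Pxr-/- controls, 0 to 1 in Pxr+/+ ATB mice and 1 to 5 in Pxr-/- ATB mice. The means gave 1 to 4 for PXR loss, 2 to 5 for ATB and 5 to 8 for sex. The share of all genes was not counted in these fits. The ATB mean was lowest without male Pxr-/- Cont replicate 2 and highest without female Pxr+/+ Cont replicate 1. The PXR mean was highest without the latter mouse, and Bag3 passed there in 19 of 47 fits. The count for sex in Pxr-/- controls was 0 without replicate 3 of the female or replicate 6 of the male Pxr-/- controls. With a replicate block the counts were 12, 6, 0 and 3 for sex, 0 for the single PXR and ATB comparisons and 2, 3 and 6 for the means of PXR loss, ATB and sex, so no count changed. Replicate numbers did not pair mice, since the mean correlation was -0.03 over 161 pairs of the same number and 0.01 over 805 others, and 8 of 47 mice correlated best with their own number. The number of arrays limits all of these.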
